A study of Homo sapiens with 12 samples.

Results

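Heat shock proteins are molecular chaperones: they bind unfolded or newly made proteins and help them to fold, to refold after stress or to be handed on for degradation. In the cytosol the HSP70 chaperones bind clients in cycles of ATP hydrolysis that J proteins start and exchange factors end, and an adaptor passes some clients on to HSP90, while in the mitochondrial matrix the HSP60 and HSP10 chaperonin forms a folding chamber. Some family members are made in every cell and others are induced by the transcription factor HSF1, which binds heat shock elements, inverted repeats of GAA and TTC, upstream of their start sites. The set described here is 10 genes of these systems, taken by gene symbol from the 55771 rows of the deposited table: HSPA1A, HSPA1B, HSPA8, HSPH1, DNAJB1, HSP90AA1, HSP90AB1, STIP1, HSPD1 and HSPE1. Each symbol had 1 row.

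KELLY, an established cell line from a human neuroblastoma with amplified MYCN, gave total RNA for 3 groups of 4 libraries. The groups are labelled control, BPS1 and BPS2, names of lipoplexes in which a morpholino oligonucleotide is paired with a DNA leash. One protocol is given for all of them: 24 h in 10% serum, then transfection at 50 nM and 48 h in medium with 4% serum. The labels do not say which oligonucleotide, if any, the control lipoplex held, and no group is labelled as untransfected. All libraries come from 1 cell line, and since the labels name no separate cultures, p-values measure the spread between libraries, which may be technical. The series text asks which transcripts differ once the long isoform of NEAT1, the RNA scaffold of paraspeckles, has been raised.

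Library totals were 29568872 to 33255625 normalized counts, or 29086070 to 31792470 once divided by the value of 1 read. All 7 adrenergic neuroblastoma markers had a mean of at least 10, and their summed level was 144505 to 163591 in control, 119730 to 147139 in BPS1 and 139072 to 148238 in BPS2. HAND2 was at 16386 to 18586 in control and 10945 to 13005 in BPS1, and DBH at 29067 to 32417 and 22611 to 27637. Of 10 immune, endothelial and epithelial markers, PTPRC, CD14, CD3E, CDH5, CDH1 and KRT18 averaged under 10, and MS4A1, PECAM1, VWF and EPCAM did not. The 3 endothelial markers summed to 111 to 158 in control, 124 to 235 in BPS1 and 100.5 to 157 in BPS2, the highest value being that of BPS1 replicate 4. The summed level of 5 fibroblast markers was 997 to 1279 in control, 1125 to 1719 in BPS1 and 1278 to 1737 in BPS2, and the part of these marker levels in the results was not tested. NEAT1, the gene the series text names, was at 6494 to 7074 in control, 1414 to 2380 in BPS1 and 3912 to 4853 in BPS2, but its single row does not separate the isoforms. Control replicate 1 and BPS1 replicate 4 stood apart: their log2 values deviated from each gene's median over libraries with an SD over genes of 0.471 and 0.594, against 0.377 to 0.425 in the other 10. Their deviations also rose most with transcript GC content (Spearman's rho of 0.230 and 0.349 over 14656 protein-coding genes, which are not independent). Counts below are therefore also given without these 2 libraries, a choice made after seeing the data. Both were picked for their deviation, so leaving them out tends to narrow the spread, and a smaller adjusted p there is not added support.

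The heat shock elements are shown first because they mark which members have the letters that HSF1 recognises near a listed start. RefSeq's promoter table for GRCh38.p14 matched all 10 members, with 17 start sites, and the 250 bases before each were searched on both strands. A pair of units is GAANNTTC or TTCNNGAA, each its own reverse complement. It was found before at least 1 start of 7 members, in 7 of the 17 member windows and in 11.6% of all 35116 windows. A run of 3 units is GAANNTTC followed by NNGAA or its reverse complement, TTCNNGAA followed by NNTTC, which contains the pairs. It was found in 4 members, in 4 of the 17 member windows and in 0.441% of all windows. In the stretches below, read 5′ to 3′ on the gene's strand, capitals mark the pair in the first 3 and the run of 3 units in the others.
HSPA1A, chr6:31815415-31815462, plus strand: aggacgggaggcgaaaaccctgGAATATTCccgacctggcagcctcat
HSPA1B, chr6:31827611-31827658, plus strand: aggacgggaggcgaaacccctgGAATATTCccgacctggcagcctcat
DNAJB1, chr19:14518427-14518484, minus strand: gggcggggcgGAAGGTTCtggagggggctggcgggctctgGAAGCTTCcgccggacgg
HSPA8, chr11:123062168-123062197, minus strand: ggccccTTCTGGAAGGTTCtaagatagggt
HSP90AA1, chr14:102087109-102087138, minus strand: gggttcTTCCGGAAGGTTCgggaggcttct
HSP90AB1, chr6:44247825-44247854, plus strand: agattgTTCTGGAAGCTTCtggattctggc
HSPD1, chr2:197500061-197500090, minus strand: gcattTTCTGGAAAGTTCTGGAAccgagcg

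The HSPA1A and HSPA1B stretches are identical at 47 of 48 bases, which shows how alike these neighbouring copies are even outside the transcript. The HSPD1 stretch holds 2 overlapping runs and lies where the annotated spans of HSPD1 and HSPE1, on opposite strands, overlap. HSPA8 and HSP90AB1 had 2 runs each, of which the one nearer the start is shown. HSPE1 had neither motif in the 250 bases before its listed start, a window from 197500129 to 197500378. The HSPD1 stretch lies outside that window, on its upstream side. HSPH1 and STIP1 had neither motif in these windows, which says only that these letters are not there. A match is a description of the sequence and not evidence that a factor binds there.

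In control cells the 10 genes spanned a wide range of levels. Per kilobase of the principal transcript, an approximate scale because the authors' transcript lengths were not used here, HSP90AB1 stood at 27900 ± 1761 and HSPA8 at 26556 ± 824 normalized counts (SD, n = 4). These constitutive forms of HSP90 and HSP70 overlapped between libraries and could not be ordered. Below them, without overlap between neighbours in this order, came HSPD1 (13270 ± 148), the inducible HSP90 form HSP90AA1 (12068 ± 249), HSPE1 (7155 ± 1405), STIP1 (4541 ± 87.7), HSPH1 (2105 ± 278), HSPA1B (1525 ± 10.6) and DNAJB1 (1039 ± 53.9). The HSPA1A row was at 0.651 on this scale. The order depends on the length chosen: the median length of coding transcripts, which was tried first and counts many short models, put HSPA8 (62411) and HSPD1 (48917) above HSP90AB1 (28552) and DNAJB1 (3939) above HSPH1 (3061) and HSPA1B (1525). The 10 genes together took up 0.777% to 0.806% of all normalized counts in control, 0.810% to 0.865% in BPS1 and 0.827% to 0.853% in BPS2.

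**Figure D1:**
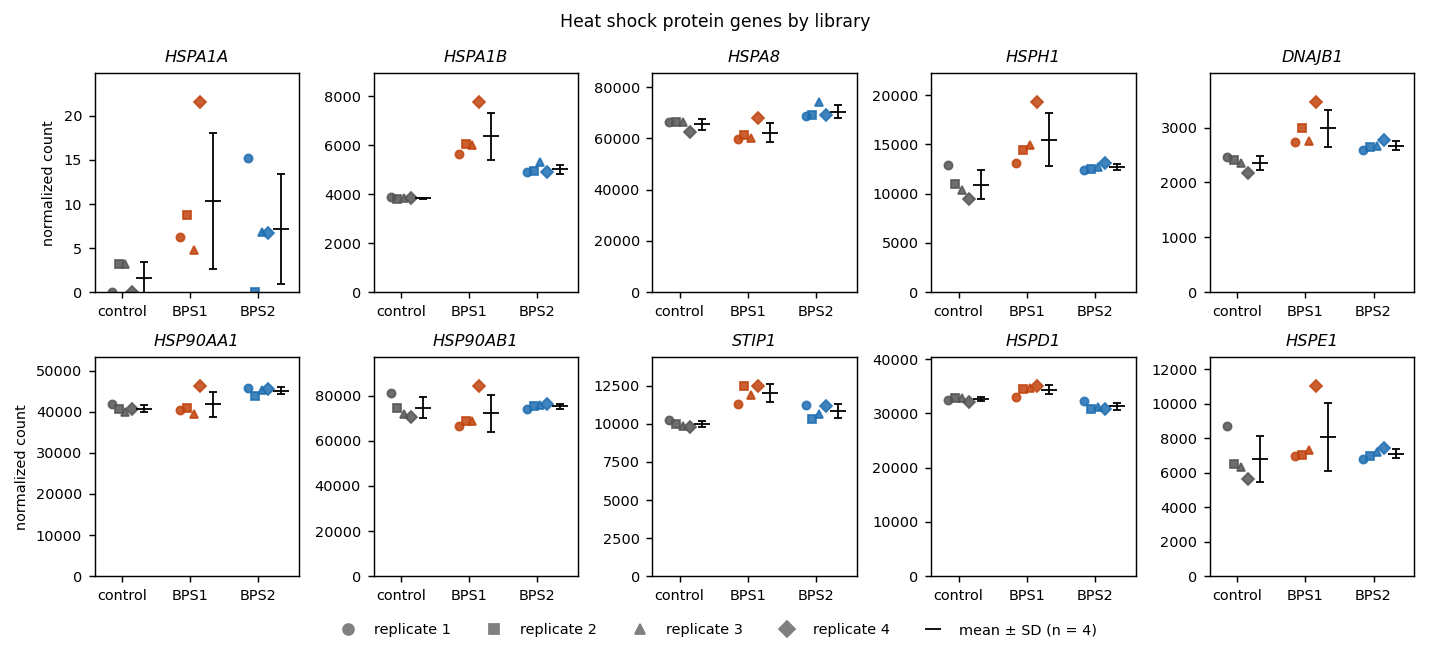
Deposited normalized counts of the 10 genes in each library (each panel has its own axis from 0), with the mean and SD of each group (n = 4) beside the points. HSPA1B lies at 3819 to 3881 in control, 5632 to 7781 in BPS1 and 4903 to 5306 in BPS2, with no overlap, and the highest point in the HSPE1 panel is BPS1 replicate 4, at 11033.

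With BPS1, 4 of the 9 members tested rose, all of them in the cytosolic HSP70 system or the adaptor that joins it to HSP90. They were HSPA1B (1.64-fold), HSPH1 (1.41-fold), DNAJB1 (1.26-fold) and STIP1 (1.21-fold), and no member fell (limma, adjusted p under 0.05). Over all 20454 genes tested, 4.29% rose and 4.32% fell. Many of these genes had far lower levels than the members. With a minimum of 50, 871 of 14307 genes rose, and no share matched for level was computed. These are bulk libraries, so more cells with the RNA and more RNA per cell cannot be told apart. The median log2 fold change was 0.24 over the 9 members and 0.00 over all genes. The groups did not overlap in 5 of the 9 members, each higher in BPS1, which was so for 7.50% of all genes. Without control replicate 1 and BPS1 replicate 4 the count was 5, with HSPE1 added, beside 6.42% of all genes rising. With a replicate block the calls of HSPH1 and DNAJB1 were lost (limma adjusted p = 0.0568 and 0.0611). They were also lost with only the compared groups in the fit (0.0692 and 0.0821).

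HSPA1B encodes the stress-inducible cytosolic HSP70 and lies on chromosome 6 from 31827735 to 31830255, plus strand, as an intronless gene. Its row held 3881, 3819, 3843 and 3831 normalized counts in control replicates 1 to 4, 5632, 6051, 5998 and 7781 in BPS1, and 4903, 4962, 5306 and 4925 in BPS2. Every BPS1 library was above every BPS2 library, and every BPS2 library above every control. In BPS1 the log2 fold change was 0.72 ± 0.09 (SE of the fit, limma adjusted p = 2.89e-04), the largest of the set. It was 0.62 without the 2 libraries that stood apart (limma adjusted p = 1.25e-05), and the call also held in 12 of 12 omissions of a single library.

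HSPA1A, the neighbouring copy on chromosome 6 (31815464 to 31817946, plus strand), encodes the same kind of protein, and the 2 rows must be read together. The HSPA1A row was listed at 0 in control replicates 1 and 4 and in BPS2 replicate 2, and at most at 21.6, in BPS1 replicate 4. It did not pass the filter on low values and was left out of the main fit. Every BPS1 library (at least 4.76) was above every control (at most 3.24), at an exact permutation p of 0.0286, or 0.0571 adjusted over the 30 tests of members. With no filter its limma adjusted p was 0.175 in BPS1, and at such low values no fold is given. It made up at most 0.310% of the sum of both rows in any library. Of the 100-base windows of the annotated HSPA1A transcripts, 67.3% also occur in the HSPA1B transcript, and reads from such windows cannot be assigned to one copy. The table also gives both rows gene identifiers (ENSG00000234475 and ENSG00000231555) that are not on the primary assembly in GENCODE release 29, where the symbols have others. The HSPA1B row is therefore best read as inducible HSP70 RNA from either copy, and the near absence of HSPA1A as uncertain.

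HSPA8 encodes the constitutive HSC70, the main cytosolic HSP70 of unstressed cells (chromosome 11, 123057489 to 123063230, minus strand). Its control libraries held 66564, 66274, 66421 and 62368, its BPS1 libraries 59579, 61446, 60253 and 67794, and its BPS2 libraries 68828, 69292, 74260 and 69183. All 4 BPS2 libraries were above all 8 others, and BPS1 overlapped control. Against control the log2 fold change was −0.07 ± 0.05 in BPS1 (95% interval −0.19 to 0.04) and 0.11 ± 0.05 in BPS2 (95% interval −0.01 to 0.22), and neither passed (limma adjusted p = 0.476 and 0.496). Its interval in BPS1 lies below that of HSPA1B (0.53 to 0.90).

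The ratio of the inducible to the constitutive HSP70 row separated the groups with little spread. HSPA1B over HSPA8 was 0.0583, 0.0576, 0.0579 and 0.0614 in the control libraries, 0.0945, 0.0985, 0.0996 and 0.115 in BPS1, and 0.0712, 0.0716, 0.0715 and 0.0712 in BPS2. An SD of 0.000201 among BPS2 libraries compares with 0.00177 in control and 0.00889 in BPS1. The 3 ratios described here, like the motif search above, were added after the values were seen. A ratio within a library does not depend on how libraries were scaled to each other. A shift with GC content need not cancel in it: median transcript GC was 58.7% for HSPA1B and 46.8% for HSPA8. BPS1 replicate 4, where deviations rose most with GC content, also had the highest ratio, and the part of GC content was not tested. Each pair of groups was completely separated, at an exact two-sided permutation p of 0.0286, the smallest that 70 arrangements allow, or 0.0643 after adjustment over the 9 ratio tests made. HSPA1B alone already separated every pair of groups, so the p of the ratio is not separate support.

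DNAJB1, the J protein that loads clients onto cytosolic HSP70 (chromosome 19, 14514770 to 14529770, minus strand), was at 2462, 2405, 2360 and 2179 in control and at 2735, 2989, 2748 and 3470 in BPS1. BPS2 was at 2590, 2645, 2658 and 2780. Both treated groups were above control in every library and overlapped each other in range. The log2 fold change in BPS1 was 0.34 ± 0.08 (limma adjusted p = 0.0203). The call was lost without control replicate 4 (limma adjusted p = 0.0593) and without BPS1 replicate 2 (limma adjusted p = 0.0515), and also with only the compared groups in the fit (0.0821) and with a replicate block (0.0611).

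HSPH1, the HSP110 exchange factor that releases ADP from HSP70 and helps it to dissolve aggregates (chromosome 13, 31134974 to 31162388, minus strand), was at 12891, 10963, 10375 and 9484 in control. It was at 13097, 14467, 14962 and 19331 in BPS1 and at 12423, 12463, 12702 and 13101 in BPS2. All BPS1 libraries were above all controls, although control replicate 1 came close to BPS1 replicate 1. The log2 fold change in BPS1 was 0.49 ± 0.11 (limma adjusted p = 0.0164) and 0.46 without both libraries that stood apart (limma adjusted p = 4.47e-04). The call was lost with only the compared groups in the fit (limma adjusted p = 0.0692) and with a replicate block (0.0568). Control replicate 1 and BPS1 replicate 4 were the highest library of their groups.

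STIP1 encodes the adaptor HOP, whose repeat domains hold the tails of HSP70 and HSP90 at the same time (chromosome 11, 64185272 to 64204543, plus strand). Its values were 10229, 10005, 9852 and 9799 in control, 11274, 12493, 11923 and 12469 in BPS1, and 11246, 10307, 10662 and 11143 in BPS2. Without overlap, control was lowest, BPS2 next and BPS1 highest. The log2 fold change of 0.27 ± 0.05 in BPS1 was small but exceeded the spread between libraries (limma adjusted p = 0.00872).

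Neither HSP90 gene passed in any of the 3 comparisons. HSP90AA1, the inducible form (chromosome 14, 102080738 to 102139699, minus strand), was at 41971, 40590, 39995 and 40552 in control, 40425, 41015, 39345 and 46291 in BPS1 and 45717, 43803, 45209 and 45454 in BPS2. BPS1 replicates 1 and 2 lay within the control range, replicate 3 below it and replicate 4 above it, whereas every BPS2 library was above every control. The log2 fold change was 0.03 ± 0.06 in BPS1 (95% interval −0.09 to 0.15, limma adjusted p = 0.787) and turned to −0.02 without BPS1 replicate 4. HSP90AB1, the constitutive form (chromosome 6, 44246166 to 44253888, plus strand), ranged over 70730 to 81189 in control, 66713 to 84342 in BPS1 and 73881 to 76122 in BPS2. These ranges overlapped throughout, and its log2 fold change was −0.05 ± 0.07 in BPS1 (95% interval −0.21 to 0.11) and 0.02 ± 0.07 in BPS2 (95% interval −0.14 to 0.17). HSP90AA1 and HSP90AB1 are similar in sequence, so some of their reads may also have been divided by estimate. HSP90AA1 over HSP90AB1 was 0.517 to 0.573 in control, 0.549 to 0.606 in BPS1 and 0.582 to 0.619 in BPS2, and only BPS2 and control did not overlap (exact permutation p = 0.0286, 0.0643 adjusted over the 9 ratio tests).

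The mitochondrial chaperonin genes are neighbours on chromosome 2 and did not pass in either comparison with control. HSPD1, which encodes HSP60, the barrel of the chamber (197486581 to 197516737, minus strand), was at 32547, 32867, 32825 and 32076 in control, 33098, 34509, 34753 and 35066 in BPS1, and 32220, 30866, 31146 and 30892 in BPS2. All BPS1 libraries exceeded all the others, by a log2 fold change over control of only 0.08 ± 0.04 (95% interval −0.02 to 0.17, limma adjusted p = 0.340). HSPE1, which encodes HSP10, the lid (197499994 to 197503457, plus strand), was at 8721, 6508, 6319 and 5642 in control, 6981, 7017, 7334 and 11033 in BPS1, and 6818, 6977, 7212 and 7431 in BPS2. Both high values belong to the libraries that stood apart, control replicate 1 and BPS1 replicate 4. Its log2 fold change in BPS1 was 0.24 ± 0.15 (limma adjusted p = 0.380), and without these 2 libraries 0.21 ± 0.06 (limma adjusted p = 0.0291). Single libraries moved it widely, to 0.08 without BPS1 replicate 4 (limma adjusted p = 0.691), 0.16 without control replicate 4 and 0.37 without control replicate 1 (0.125). Part of its reads may belong to the readthrough transcript HSPE1-MOB4, whose own row averaged 359, 445 and 441 in control, BPS1 and BPS2.

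The pair did not keep a fixed proportion. HSPE1 over HSPD1 was 0.176 to 0.268 in control, 0.203 to 0.315 in BPS1 and 0.212 to 0.241 in BPS2, with the highest value of control in replicate 1 and that of BPS1 in replicate 4. No pair of groups separated (exact permutation p of 0.343 to 1.00, 0.441 to 1.00 adjusted over the 9 ratio tests). Within control the coefficient of variation was 19.6% for HSPE1 and 1.12% for HSPD1, although both are read from the same libraries.

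**Figure D2:**
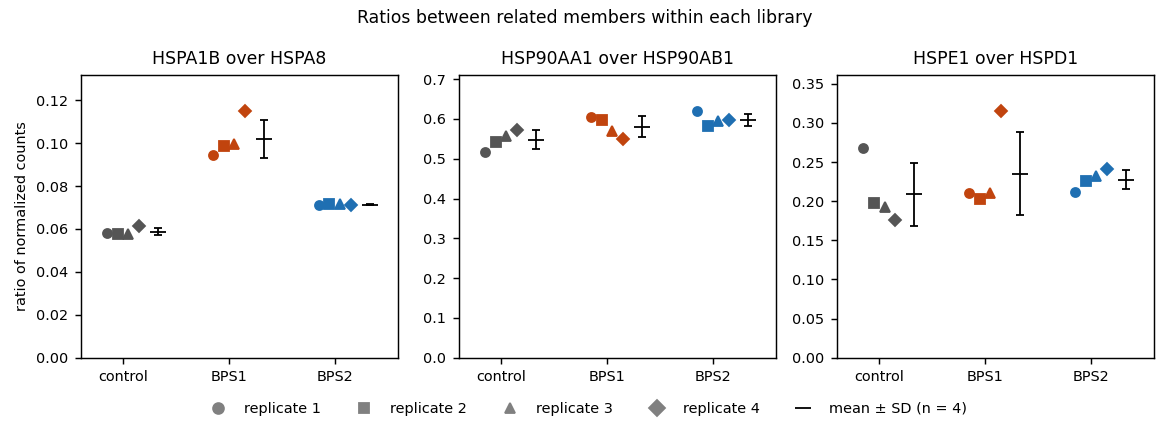
Ratio of the deposited normalized counts of 2 related genes in each library (axes start at 0), with the mean and SD of each group (n = 4). HSPA1B over HSPA8 separates all 3 groups, HSP90AA1 over HSP90AB1 separates BPS2 (0.582 to 0.619) from control (0.517 to 0.573), and the groups overlap for HSPE1 over HSPD1.

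With BPS2, none of the 9 members passed against control, and 8 of the 9 log2 fold changes were positive. HSPA1B was 1.31-fold higher (log2 fold change 0.39 ± 0.09) at a limma adjusted p of 0.0527, just above the threshold. HSP90AA1 (0.14 ± 0.06), DNAJB1 (0.18 ± 0.08) and STIP1 (0.12 ± 0.05) had limma adjusted p of 0.320, 0.403 and 0.430, and HSPH1 (0.22 ± 0.11) 0.494. At an unadjusted limma p under 0.05 the count was 4 of 9, and the share of all genes at that threshold was not computed. The exact permutation test reached its smallest p of 0.0286 for 5, or 0.0571 adjusted over the 30 tests of members. They were HSPA8 besides HSPA1B, DNAJB1, HSP90AA1 and STIP1. These 5 were higher in every BPS2 library than in any control, which was so for 5.41% of all genes. Over all genes 0.821% rose and 0.386% fell with BPS2, and the median log2 fold change was 0.12 over the members against 0.00. Both comparisons share the control libraries, so their values stand side by side and are not independent.

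The BPS2 result turned on the 2 libraries that stood apart. Without control replicate 1 and BPS1 replicate 4, 5 of the 9 members rose with BPS2, beside 5.78% of all genes. The log2 fold change of HSPA1B hardly moved, while its SE went from 0.09 to 0.04. They were HSPA1B (0.39, limma adjusted p = 5.43e-04), HSPH1 (0.30, adjusted p = 0.00842), DNAJB1 (0.21, adjusted p = 0.0353), HSP90AA1 (0.16, adjusted p = 0.00465) and HSPE1 (0.21, adjusted p = 0.0312). HSPA1B was also called without BPS1 replicate 4 alone (limma adjusted p = 9.90e-04), without BPS1 replicate 1 (0.0471) and when BPS1 was left out of the fit altogether (0.00579).

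**Figure D3:**
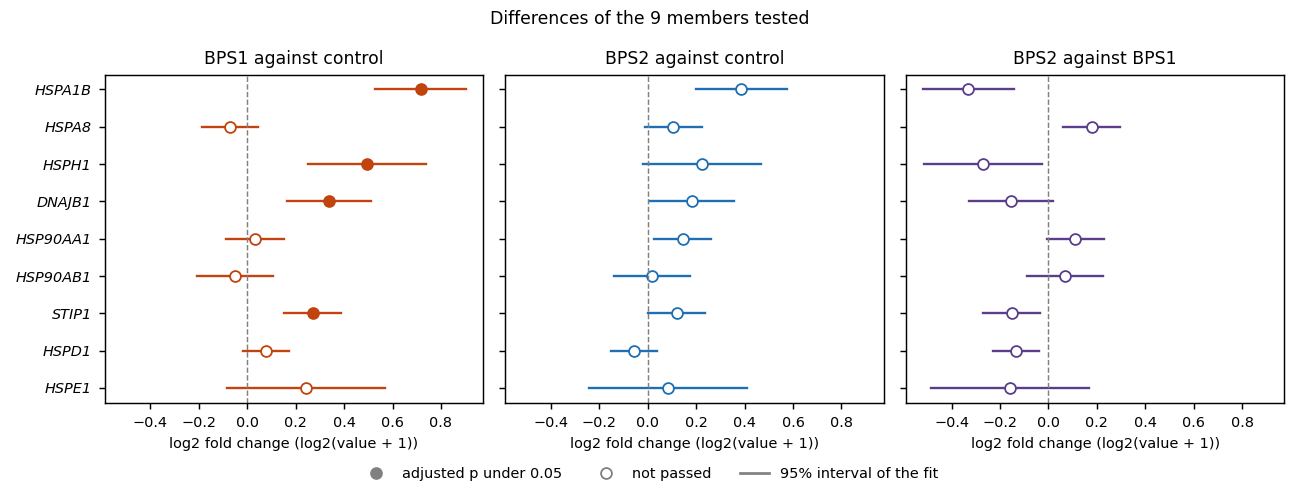
Log2 fold changes of the 9 members tested in the 3 comparisons, with the 95% interval of the fit (lines) and filled points where the adjusted p was under 0.05. HSPA1B, HSPH1, DNAJB1 and STIP1 are filled in BPS1 against control, and no point is filled in the other panels.

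In the direct comparison of the 2 oligonucleotides no member passed. HSPA1B was lower in BPS2 than in BPS1 by a log2 difference of −0.33 ± 0.09 (limma adjusted p = 0.0534), and HSPA8 was higher by 0.18 ± 0.05 (limma adjusted p = 0.0937). HSPD1 was at −0.14 ± 0.04 (limma adjusted p = 0.120) and STIP1 at −0.15 ± 0.05 (limma adjusted p = 0.166). At an unadjusted limma p under 0.05 the count was 5, for which the share of all genes was not computed. The exact permutation test reached 0.0286 for 4. Groups did not overlap with BPS2 higher for 1 member, HSPA8, beside 6.08% of all genes, and with BPS2 lower for 3, HSPA1B, STIP1 and HSPD1, beside 5.80%. The shares of all genes that passed were 2.30% higher and 1.63% lower in BPS2.

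Without the 2 libraries that stood apart, 3 members passed as higher in BPS2 and 2 as lower, beside 10.5% and 6.88% of all genes. The higher ones were HSPA8 (0.22, limma adjusted p = 0.00137), HSP90AA1 (0.16, adjusted p = 0.00166) and HSP90AB1 (0.14, adjusted p = 0.00327). The lower ones were HSPA1B (−0.23, limma adjusted p = 0.00429) and HSPD1 (−0.13, adjusted p = 0.0113).

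No gene for a transcription factor of the response passed. HSF1, the main inducer of heat shock genes, averaged 2806 ± 183, 2958 ± 447 and 2688 ± 308 (SD, n = 4) in control, BPS1 and BPS2, with log2 fold changes of 0.07 ± 0.11 and −0.07 ± 0.11 (limma adjusted p = 0.770 and 0.873). HSF2, its relative, averaged 1472 ± 6.55, 1493 ± 166 and 1532 ± 62.9. Neither these genes, HSF4, nor HSBP1, which encodes a protein that binds HSF1, passed in either comparison, and 0 of the 4 had an unadjusted p under 0.05. The levels of these RNAs do not measure HSF1 activity, which is set mainly on the protein.

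HSPA6, an HSP70 that is nearly silent without stress, was also near its lower limit here. Its values, divided by the value of 1 read, came out whole: 0, 3, 0 and 2 in control, 8, 7, 10 and 9 in BPS1, and 20, 8, 5 and 4 in BPS2. Every treated library held more reads than any control, yet the gene missed the filter on low values and was not tested. With no filter its limma adjusted p was 0.0319 in BPS1 and 0.124 in BPS2, and at so few reads no fold is given.

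Among 77 other chaperone genes, of which 74 were tested, 10 rose and 0 fell with BPS1, and 2 rose and 0 fell with BPS2, beside 4.29% and 0.821% of all genes rising. The median log2 fold change of the 74 was 0.16 and 0.08, against 0.00 for all genes in both. Without the 2 libraries that stood apart the counts were 22 rising and 1 falling with BPS1, and 24 rising and 1 falling with BPS2, beside 6.42% and 5.78% of all genes rising, so these counts depend strongly on those libraries.

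Of 8 other HSP70 and HSP110 genes tested, which include HSPA13 of the endoplasmic reticulum, 3 rose with BPS1. HSPA4, a second HSP110 exchange factor, went from 8619 ± 879 to 12789 ± 2483 (0.56 ± 0.11, limma adjusted p = 0.00811). HSPA14, a ribosome-associated HSP70, went from 791 ± 77.1 to 1160 ± 132 (0.55 ± 0.09, adjusted p = 0.00261), and HSPA2, an HSP70 abundant in testis, from 141 ± 27.1 to 239 ± 46.5 (0.76 ± 0.16, adjusted p = 0.0126). With BPS2 these genes were at 0.28, 0.25 and 0.57 and did not pass. HSPA4 is thus a second HSP110 gene, beside HSPH1, that rose with BPS1.

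The TRiC chaperonin, the cytosolic counterpart of the mitochondrial chamber that folds actin and tubulin, rose in 3 of its 8 subunits with BPS1, and all 8 had positive log2 fold changes with each oligonucleotide. TCP1 went from 13395 ± 591 to 17330 ± 2221 (0.36 ± 0.08, limma adjusted p = 0.0109), CCT2 from 11417 ± 937 to 15656 ± 2268 (0.45 ± 0.09, adjusted p = 0.00791) and CCT4 from 12282 ± 1510 to 17076 ± 3923 (0.46 ± 0.13, adjusted p = 0.0453). The TCP1 call was lost with only the compared groups in the fit (limma adjusted p = 0.0581), as was that of CCT4 (0.125). The CCT4 call was also lost in 9 of 12 omissions of a library, with adjusted p up to 0.118. CCT2 was also the single chaperone gene of these lists that passed between the oligonucleotides, 0.37 lower in BPS2 on the log2 scale (−0.37 ± 0.09, limma adjusted p = 0.0374), a call held in 3 of 12 omissions.

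HSP90 co-chaperones rose in 2 of 11 with BPS1. They were PTGES3, which encodes p23, a cofactor that stabilises the closed HSP90 clamp (13293 ± 819 to 17472 ± 1756, 0.39 ± 0.07, limma adjusted p = 0.00572), and SUGT1 (2497 ± 254 to 3606 ± 721, 0.52 ± 0.12, adjusted p = 0.0160). The SUGT1 call was lost without control replicate 3 (limma adjusted p = 0.0513) and with only the compared groups in the fit (0.0640). Of 8 other cytosolic J protein genes only DNAJB6, which restrains aggregation, rose (4164 ± 89.8 to 4902 ± 249, 0.23 ± 0.06, limma adjusted p = 0.0282), and its call held in 8 of 12 omissions but not with only the compared groups in the fit (0.0968). None of 8 HSP70 exchange factors and partners passed, BAG3 included (0.30 in BPS1 and 0.39 in BPS2, limma adjusted p = 0.117 and 0.140).

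HSPB8, a small heat shock protein that works with BAG3 in disposing of misfolded proteins, was the chaperone gene raised by both oligonucleotides. Its control mean was 130 ± 14.7, its BPS1 mean 241 ± 34.1 and its BPS2 mean 266 ± 17.8, log2 fold changes of 0.88 ± 0.12 (limma adjusted p = 7.05e-04) and 1.03 ± 0.12 (limma adjusted p = 0.00108). Both calls held in 12 of 12 omissions of a library. No other small heat shock protein gene of the 6 tested passed.

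Among chaperones of other compartments, a single gene passed. Of 10 further mitochondrial chaperones and proteases 0 passed with either oligonucleotide, with median log2 fold changes of 0.11 and 0.05. Of 11 chaperones of the endoplasmic reticulum 0 passed with BPS1 and 1 with BPS2, HSPA5, which encodes the ER HSP70 BiP (16721 ± 1209 in control and 22947 ± 934 in BPS2, 0.46 ± 0.09, limma adjusted p = 0.0285). All 11 had positive log2 fold changes with BPS2, with a median of 0.22, against 8 of 11 and 0.08 with BPS1. The HSPA5 call was lost in 7 of 12 omissions (limma adjusted p up to 0.112, without BPS2 replicate 3) and with a replicate block (0.123).

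**Figure D4:**
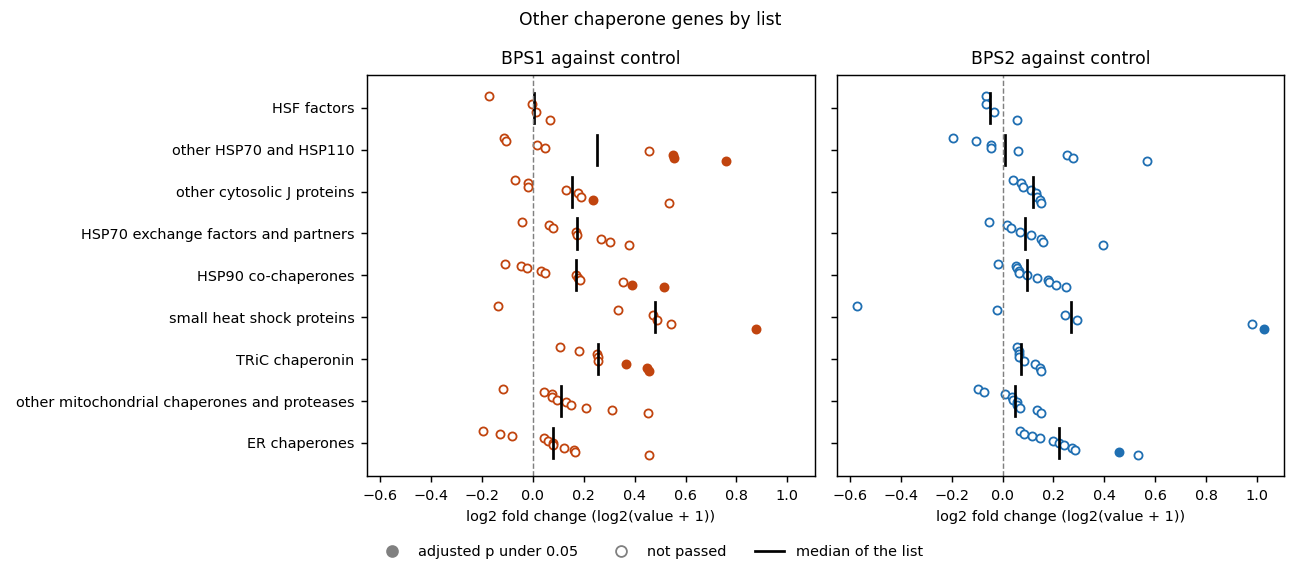
Log2 fold changes of 74 other chaperone genes against control, 1 point per gene, filled where the adjusted p was under 0.05, with the median of each list as a bar. The filled points in BPS1 lie in the HSP70, J protein, HSP90 co-chaperone, small heat shock protein and TRiC lists, and in BPS2 they are HSPB8 and HSPA5.

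The pattern of the set over the 12 libraries was summarised as the mean z-score of its 9 genes above the filter. It ran from −1.09 in control replicate 4 to 1.77 in BPS1 replicate 4, with control replicate 1 at −0.01 and the BPS2 libraries between −0.09 and 0.24. BPS1 replicates 1 to 3 were at −0.27, 0.27 and 0.09. Control replicates 2 to 4 were thus below every other library. BPS1 was above BPS2 only in replicate 4, a library that stood apart, and BPS1 replicate 1 was below control replicate 1. Among 13965 other genes with a mean of at least 50, those most like it were RRP36 (Pearson's r = 0.974), DNAJA2 (0.972), GRSF1 (0.972), SSBP1 (0.971) and MRPL22 (0.968), given as a description over 12 libraries that share depth and GC shifts. Of the set itself, HSPH1 (0.943), DNAJB1 (0.930) and HSPE1 (0.903) followed the mean most closely and HSPA8 (0.277) and HSPD1 (0.402) least.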

How the data were processed

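RNA-seq libraries of KELLY cells were compared in 3 groups of 4. Per the submitters' processing notes, FastQC 0.11.7, Salmon 0.8.2 and DESeq2 were used with GRCh38; which annotation was used, and how transcripts were summed, is not stated in the labels. The table deposited by the authors holds 1 signal value per gene symbol and library, a normalized count scaled between libraries. BPS2 columns were matched to samples by title, since their descriptions use another name. Of the rows tested, 23.1% were whole multiples of the value of 1 read in all libraries (within 0.001), so reads were not recovered and no test on counts was run. Chi-square per gene between replicates was 1.71 to 24.4, so no libraries were merged.

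Genes that reached 10 in 4 or more libraries were taken as log2(value + 1), a scale that understates the change of low genes, and fitted with limma 3.58.1 (R 4.3.3, mean-variance trend) with group as the only term. Two-sided p-values were adjusted by Benjamini and Hochberg over all 20454 genes. Ratios of members, the promoter search and the choice of principal transcripts for levels per kilobase were added after the values were seen. Single members and ratios also had exact permutation tests (scipy 1.17.1). Named were all members, NEAT1, HSF1, HSF2, HSPA6, up to 3 passing genes of each other list and the 5 genes most like the set; BAG3, HSPB8's partner, HSF4, HSBP1, HSPA13, the marker genes and the readthrough gene were named after their values were seen. The members and lists were chosen with earlier results of these data known. Gene positions are from GENCODE release 29 (GRCh38), which may not be the authors' release; HSPA1A, HSPA1B and HSF1 were matched to it by symbol. The alternatives were other pseudocounts, filters, scalings and variance estimates, library weights, a replicate block, fits of 2 groups and omission of each library. Replicate numbers did not pair the libraries.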

Additional observations from a re-analysis of the deposited data

Results flagged for a closer look

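In 30 groups of 4 values (10 genes in 3 groups), 5 held a library whose gap to its nearest neighbour exceeded Dixon's critical value as a share of the group's range, where chance gives about 1 group in 20. HSPE1 stood at 11033 and HSP90AB1 at 84342 in BPS1 replicate 4, both the highest of their groups. HSPA1B at 5306 and HSPA8 at 74260 were the highest BPS2 values, both in replicate 3. HSPA8 at 62368 in control replicate 4 was the lowest of its group.

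Of the other chaperone genes, CCT2 differed between the oligonucleotides by a log2 value of −0.37 (BPS2 against BPS1, limma adjusted p = 0.0374).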

How the results depend on the processing

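With BPS1 against control, 4 members were called; the count was 2 with a replicate block, 2 with only the compared groups in the fit, and 3 to 4 when single libraries were left out. With BPS2 against control the count of 0 became 1 with a minimum of 50, 2 with quantile scaling, 3 with library weights, 1 with only the compared groups, 1 with the GC trend removed and 5 without both libraries that stand apart, and was 0 to 2 when single libraries were left out. Between the oligonucleotides the count of 0 became 1 with a minimum of 50, 1 with quantile scaling, 6 with library weights, 1 with the GC trend removed and 5 without both libraries, and was 0 to 3 over single omissions. For the other chaperone genes the BPS1 count of 10 was 16 with quantile scaling, 20 with library weights, 6 with only the compared groups, 23 without both libraries and 7 to 13 over single omissions. Their BPS2 count of 2 was 1 with no filter, 11 with weights, 1 with the block, 25 without both libraries and 1 to 4 over omissions. Between the oligonucleotides their count of 1 was 8 with quantile scaling, 18 with weights, 0 with the block, 0 with only the compared groups, 19 without both libraries and 0 to 8 over omissions. Shares of all genes called, in either direction, moved as well. In the order BPS1 against control, BPS2 against control, BPS2 against BPS1 they were 8.60%, 1.21% and 3.93%. Library weights gave 16.5%, 6.34% and 17.7%, and leaving out both libraries 13.7%, 9.54% and 17.4%. Quantile scaling gave 9.04%, 1.32% and 4.38%, and only the compared groups 4.43%, 1.62% and 2.65%. The block gave 5.22%, 0.577% and 2.19%, and the GC trend removed 10.1%, 1.63% and 4.82%. The cause was not tested.

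Small log2 fold changes turned sign. For BPS1 these were HSPA8 (0.0559) and HSP90AB1 (0.0640) with quantile scaling, HSP90AA1 with library weights (−0.0037) and without both libraries (−0.0044), HSF1 with the GC trend removed (−0.0239), and HSF2 with quantile scaling (−0.00043), weights (−0.0466) and without both libraries (−0.0576). Over single omissions HSP90AA1 ran from −0.0183 to 0.0599, HSF1 from −0.0330 to 0.119 and HSF2 from −0.0600 to 0.0553 with BPS1, and HSP90AB1 from −0.00917 to 0.0571 with BPS2. Of 648 recomputed member values, 600 kept direction and call. With the filters, the block and omissions from the group not compared, the log2 fold changes stay as they were. There the direction was fixed in advance and only the call could change, also within the 12 omissions. The samples share only a replicate number: 1 of 12 same-numbered pairs correlated above 0.1 and 0 libraries correlated best with their own number. The block took HSPH1 and DNAJB1 with BPS1 to limma adjusted p of 0.0568 and 0.0611.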
